A study of Canis lupus familiaris with 12 samples.

Results

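Prostaglandins are lipid signals made from arachidonic acid. Cyclooxygenases turn arachidonic acid into an unstable precursor, terminal synthases convert that precursor into single prostaglandins, and transporters and receptors on the cell surface then set how strongly and how long the signal acts. In the kidney, prostaglandin E2 is made by tubule cells and acts on them again through its own receptors, where it modulates salt and water transport, and the inducible cyclooxygenase is also a well-known gene of inflammation.

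Described here are 5 genes of this pathway: PTGS2, the inducible cyclooxygenase; PTGDS, a prostaglandin D2 synthase; SLCO2A1, a carrier that takes prostaglandins up into cells; and PTGER2 and PTGER4, the prostaglandin E2 receptors EP2 and EP4. The genes were chosen with earlier results of these data known. Their probes were taken by name, as every gene probe of the array whose identifier is a RefSeq transcript of 1 of these dog genes. This gave 5 of the 944 genes with a symbol and 5 of the 43603 probes, 1 for each gene, each printed as 1 spot per array. Probes could be given a gene symbol for 1484 of the 43603, or 3.40%, so probes that target these genes under other identifiers may exist and were not used here.

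The RNA came from MDCK cells (Madin-Darby canine kidney), an established line of dog kidney epithelium, grown to confluence and moved to serum-free medium before the experiment. They were then kept for 24 h in medium at pH 7.0, in which bicarbonate had been lowered, or at pH 7.4 as the control. Each of 3 biological replicates, extracted on different dates, gave 1 RNA from each medium. Every RNA was put on 2 one-colour arrays, which makes 12 arrays in all from 6 RNAs, 6 per medium. The study's title concerns cytokine genes, and the question for the present genes is whether their transcripts differ between the media. The line is a single established cell line, so the replicates are repeats of 1 culture system and not separate animals.

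A level is given as the log2 of the background-corrected Cy3 signal minus the 75th percentile of its array. A level of 0 thus means a signal equal to that percentile, and levels of different probes are not comparable with each other. A change is the level at pH 7.0 minus that at pH 7.4 within a biological replicate, with the standard error (SE) of a limma fit over all 27136 tested probes (n = 3 pairs of RNAs). The adjusted p is corrected over all of those probes. The share of probes well above background ran from 49.4% to 70.4% over the arrays, and was at most 54.1% in biological replicate 2. The 4 arrays of a biological replicate shared 1 slide and 1 scan, so replicate, slide and scan cannot be told apart. Among the markers listed for renal tubule epithelium, 5 had a named probe. Probes of the tight junction genes OCLN, CGN and TJP1 were well above background on all 12 arrays, CLDN2 on 8, and UMOD, a marker of the thick ascending limb, on 0. Of 3 leukocyte markers with a probe, MS4A1 was above background on 0 arrays, CD4 on 5 and CD8A on 7. Of 2 endothelial markers, VWF was above it on 12 and KDR on 3. Of 5 markers of fibroblasts and smooth muscle, COL1A1 and COL1A2 were above it on 12, PDGFRB on 10, DES on 3 and DCN on 1. CLDN2, a claudin of leaky tubule epithelium, had the largest change among these markers, 1.15 ± 0.29 (limma adjusted p = 0.174), and whether it has a part in the results below was not tested.

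All 5 genes had signal in MDCK cells. PTGS2, PTGER2, PTGER4 and SLCO2A1 were well above background on all 12 arrays, and PTGDS on 11. No spot of these 5 probes was saturated or marked as an outlier. PTGER2 had the largest difference between the media: its level was 1.87-fold lower at pH 7.0 (95% interval 1.32 to 2.64), but this did not pass the threshold over all probes. PTGER4 and PTGDS had smaller differences, lower and higher respectively, and SLCO2A1 and PTGS2 lay closest to 0. With an adjusted p under 0.05, 0 of the 5 were called, against a background of 0% of the tested probes, since limma called 0 probes in all. At an unadjusted p under 0.05 there was 1 of the 5, PTGER2, against 12.2% of all tested probes, 5.77% lower and 6.48% higher.

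**Figure D1:**
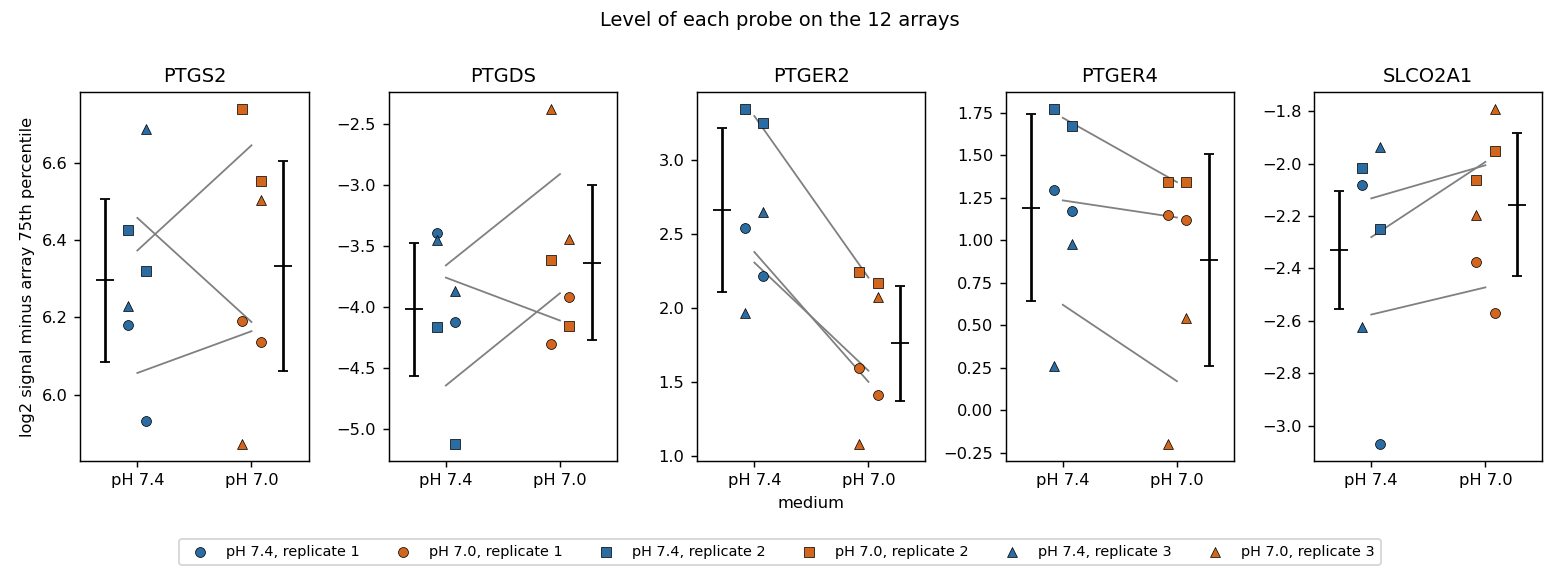
Level of each probe (log2 signal minus the array's 75th percentile, 1 panel per gene with its own scale) on the 12 arrays, by medium. Symbols mark biological replicates, grey lines join the RNA means of a replicate, and black bars are the mean ± SD over 3 RNAs. The lines of PTGER2 and PTGER4 go down from pH 7.4 to pH 7.0 in all 3 replicates, and only for PTGER2 do the RNA means of the media not overlap.

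PTGS2 catalyses the committed step of prostaglandin synthesis and is strongly induced by cytokines and growth factors in many cells. Its level at pH 7.0 was 6.16, 6.64 and 6.19 in biological replicates 1 to 3, and at pH 7.4 it was 6.06, 6.37 and 6.46. The order of the media was thus not the same in all replicates: pH 7.0 was higher by 0.11 and 0.27 in the first 2 and stood at -0.27 in the third. On single arrays the level ran from 5.87 to 6.74 at pH 7.0 and from 5.93 to 6.69 at pH 7.4, so the groups overlapped over nearly their whole range. The fitted change was 0.037 ± 0.23 (limma adjusted p = 0.967), with a 95% interval from -0.48 to 0.55. In folds this interval runs from 0.719 to 1.46, so a change in either direction within it could not be seen with 3 pairs.

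The PTGS2 probe was very bright. Its processed signal lay between 35484 and 60946, and the raw median signal of its spot was between 53.4% and 84.0% of the highest value the scanner recorded, 65528. Before scaling, the median processed signal of PTGS2 was 49832 at pH 7.0 and 53007 at pH 7.4, an order opposite to the fitted change. Whether the nearness of PTGS2 to the ceiling narrowed its difference between the media was not tested.

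PTGDS isomerises the common precursor to prostaglandin D2 and, as a secreted lipocalin, also carries small hydrophobic ligands. Its levels were -4.11, -3.89 and -2.91 at pH 7.0 and -3.76, -4.64 and -3.66 at pH 7.4. Biological replicates 2 and 3 were higher at pH 7.0, by 0.76 and 0.75, while replicate 1 stood at -0.35. In replicates 2 and 3 both pH 7.0 arrays were above both pH 7.4 arrays of the same slide. The fitted change was 0.38 ± 0.27 (limma adjusted p = 0.624; 95% interval -0.23 to 1.00). The PTGDS spot was dim: its median signal was 74 to 213.5, over a local background of 21.5 to 45. Its 2 arrays of the same RNA differed by 0.39 to 1.06, with a median of 0.64, so duplicate arrays differed by at least as much as the fitted change. The highest array, pH 7.0 array 5 at -2.38, and the lowest, pH 7.4 array 4 at -5.12, the one not well above background, stood apart from the rest of their groups without passing Dixon's limit of 0.625, at 0.552 and 0.554. Without biological replicate 1 the change was 0.75 (adjusted p = 0.246), and without replicate 2 it was 0.20.

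SLCO2A1 is the prostaglandin transporter, which clears prostaglandins such as E2 from outside the cell so that they can be broken down. Its levels were -2.47, -2.01 and -1.99 at pH 7.0 against -2.58, -2.13 and -2.28 at pH 7.4. All 3 differences were positive and small, 0.10, 0.13 and 0.29. Higher in all 3 pairs were 18% of the tested probes, and higher with no overlap of the RNA means, as SLCO2A1 was not, were 4.48%. The arrays of the media overlapped on every slide, and the range over arrays was -2.57 to -1.79 at pH 7.0 and -3.07 to -1.94 at pH 7.4. The fitted change was 0.17 ± 0.22 (limma adjusted p = 0.808; 95% interval -0.32 to 0.66). It moved with single arrays: it was 0.0077 without pH 7.4 array 2, the lowest of all, 0.058 without pH 7.4 array 5, 0.11 without pH 7.0 array 6 and 0.34 without pH 7.4 array 1.

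PTGER2 encodes EP2, a receptor that couples to the stimulatory G protein and raises cyclic AMP when prostaglandin E2 binds. Its levels at pH 7.0 were 1.50, 2.21 and 1.58 in biological replicates 1 to 3. At pH 7.4 they were 2.38, 3.30 and 2.31. Every RNA from acid medium was thus below every RNA from control medium, although the margin between the highest of one group and the lowest of the other was narrow. Of all tested probes, 3.61% were lower at pH 7.0 with no overlap of the RNA means, and PTGER2 was the only 1 of the 5 that did so. Within the pairs, the differences were -0.88, -1.09 and -0.73, a spread of 0.18 (SD, n = 3). The fitted change was -0.90 ± 0.22 (limma unadjusted p = 0.00250, adjusted p = 0.172; 95% interval -1.40 to -0.40). By its p it ranked 393rd of 27136 probes, and 1.52% of the probes had an estimate of -0.9 or lower. An exact sign-flip permutation test over the 3 pairs alone gave p = 0.25 (two-sided), the smallest that 3 pairs allow.

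Single arrays showed where the PTGER2 groups met. At pH 7.0 the lowest array was at 1.08, the median at 1.83 and the highest at 2.24, and at pH 7.4 the values were 1.97, 2.60 and 3.35. In biological replicates 1 and 2 both acid arrays were below both control arrays of the slide. In replicate 3 they overlapped, because the duplicate arrays of an RNA differed there by 0.99 at pH 7.0 and by 0.68 at pH 7.4, against 0.073 to 0.33 in the other replicates. The scaled levels of the media thus overlapped over the 12 arrays, whereas 0.789% of the tested probes were lower at pH 7.0 without such overlap. Without the scaling to the 75th percentile, the signal of PTGER2 was 1710 to 2382 on the acid arrays and 2724 to 7278 on the control arrays. These did not overlap, which was so for 0.291% of the tested probes in this direction, singled out after the values were seen.

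PTGER4 encodes EP4, which also couples to the stimulatory G protein and can in addition signal through phosphoinositide 3-kinase. Its levels were 1.13, 1.34 and 0.17 at pH 7.0 and 1.23, 1.72 and 0.62 at pH 7.4. Biological replicate 3 was the lowest in both media, so the replicates were further apart than the media. The paired differences were -0.10, -0.38 and -0.45. In replicates 1 and 2 both acid arrays were below both control arrays, and in replicate 3 they overlapped. The fitted change was -0.31 ± 0.22 (limma adjusted p = 0.627; 95% interval -0.81 to 0.19), a level 1.24-fold lower at pH 7.0 (95% interval 0.877 to 1.75). Lower in all 3 pairs were 15.7% of the tested probes, and 2 of the 5 genes, PTGER2 and PTGER4, were among them.

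**Figure D2:**
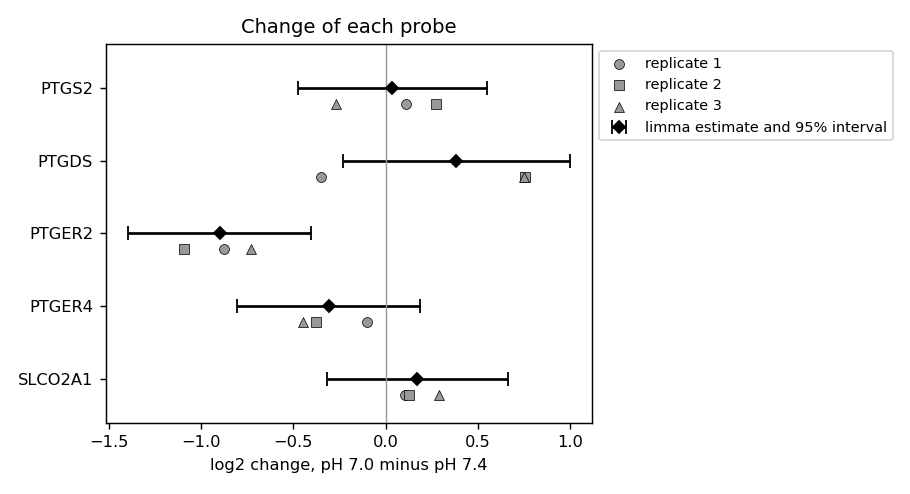
Change of each probe, pH 7.0 minus pH 7.4 (log2). Diamonds and bars are the limma estimate and its 95% interval, and grey symbols below them are the 3 biological replicates. The interval of PTGER2, -1.40 to -0.40, is the only one of the 5 that does not reach 0, without adjustment for the number of probes.

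The 2 receptors for prostaglandin E2 were also set against each other by their changes. The change of PTGER2 minus that of PTGER4 was -0.78, -0.71 and -0.28 in biological replicates 1 to 3, with a mean of -0.59 ± 0.27 (SD, n = 3 pairs). The change of PTGER2 was thus the lower of the 2 changes in every replicate. The exact sign-flip permutation test gave p = 0.25 (two-sided), which is the smallest possible with 3 pairs, so a difference between the receptors was not established. The levels of the 2 receptors had a Pearson r of 0.673 over the 6 RNAs, a description in which the points share slides in pairs. Between PTGER4 and PTGDS it was -0.92.

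Named genes whose level followed that of a gene most closely were listed by Pearson r over the 6 RNAs, among 593 others. For PTGER2 they were SEC11C, a subunit of the signal peptidase complex (0.919), NFKBIL1 (0.912) and the kinase LATS1 (0.856). Only 2 genes exceeded 0.9 for PTGER2, against 29 for PTGER4, 24 for PTGDS, 17 for PTGS2 and 13 for SLCO2A1. The changes of SEC11C, NFKBIL1 and LATS1 were -0.45, -0.58 and -0.33. Negative values largely follow from picking them by likeness to PTGER2, whose RNA means did not overlap between the media. For PTGER4 the nearest were RAB10, a small GTPase (0.979), SRP54, a signal recognition particle subunit (0.978), and the transcription factor TFAP2B (0.972). For PTGDS they were CYBA (0.980), PHB (0.960) and the nuclear receptor NR4A1 (0.958), and for SLCO2A1 tyrosine hydroxylase TH (0.967), COL1A1 (0.955) and BHLHE41 (0.948). For PTGS2 they were MAL (0.974), RHAG (0.973) and CLU (0.968), whose probes were saturated on all 12 arrays. The scaled levels of these 3 thus mostly follow the percentile subtracted from each array, and that of PTGS2 moved closely with them. How far the subtracted percentile sets the scaled level of PTGS2 was not tested. With 6 RNAs and 593 genes, all of these values are a description only.

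The other genes of the pathway showed no call either. From 6 lists of genes around prostaglandin synthesis and signalling, 36 had a named probe and 25 were tested. Of these, 18 were higher and 7 lower at pH 7.0, with a median change of 0.076. Over the 598 named genes, likewise by their brightest tested probe, 60.7% were higher and the median was 0.077, and over all tested probes 51.3% were higher and the median was 0.012. Limma called 0 of the 25 at an adjusted p under 0.05, and 0 had an unadjusted p under 0.05. Their changes ran from -0.48 to 0.51, so PTGER2 at -0.90 lay outside the range of these 25. PTGER2 had the largest change of the 5 members, and 1.52% of all tested probes had an estimate of -0.9 or lower.

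Upstream of the 5 genes, phospholipases release fatty acids from membranes. The 3 tested phospholipase genes were all on the higher side with a median of 0.33: PLA2G15, a lysosomal enzyme, at 0.47 ± 0.23 (limma adjusted p = 0.452), PLA2G7, which hydrolyses platelet-activating factor, at 0.33 ± 0.24, and PLA2G1B, the pancreatic type, at 0.022 ± 0.22. Another probe of PLA2G1B had the opposite sign, -0.01, and the other probes of PLA2G7 gave 0.31 and 0.04. PTGS1, the constitutive cyclooxygenase, has 2 probes, and the one used was above background on 0 of 12 arrays. The terminal synthases for prostaglandin E2 were close to 0. PTGES, the inducible one, stood at 0.11 ± 0.28 (limma adjusted p = 0.914), with -0.54, 0.13 and 0.75 in the 3 replicates, and PTGES2 at 0.076 ± 0.22 (adjusted p = 0.928). Their second probes gave 0.08 and 0.07. AKR1C3, a reductase that can form prostaglandin F, was above background on 0 arrays.

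Of the other prostanoid receptors, PTGDR2, a receptor for prostaglandin D2, was at -0.086 ± 0.22 (limma adjusted p = 0.919), and PTGFR, the prostaglandin F receptor, did not exceed background clearly on any of the 12. In the lipoxygenase and cytochrome branch the tested gene was CYP4A11, a fatty acid hydroxylase, at 0.047 ± 0.26. The list for cyclic AMP signalling, the pathway that EP2 and EP4 act through, had 13 tested genes. Of these, 9 were higher and 4 lower, with a median of 0.076. The lowest p values belonged to PRKACA, ADORA3 and PDE6G. PRKACA, the catalytic subunit of protein kinase A, was at 0.39 ± 0.25 (limma adjusted p = 0.574), and ADORA3, an adenosine receptor, at 0.22 ± 0.23. PDE6G, in the list although a subunit of a cyclic GMP phosphodiesterase, was at -0.15 ± 0.23. In each medium, 4 of 6 arrays measured PRKACA above background, and likewise ADORA3.

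Genes known to act upstream of PTGS2 induction did not pass the threshold either. Of 5 tested, 3 were higher and 2 lower, with a median of 0.26. NFKB1, a subunit of NF-kappaB, stood at 0.50 ± 0.23 (limma adjusted p = 0.420), MAP2K1, a kinase of the ERK cascade, at 0.51 ± 0.24 (adjusted p = 0.435), and EGF, an epidermal growth factor, at -0.48 ± 0.23 (adjusted p = 0.442). The second probe of NFKB1 gave 0.33. Each of these 3 genes had 1 sign in all 3 replicates, as did 33.7% of all tested probes. They were named for their low p, which favours a shared sign. Among the rest of the 5 tested, MAPK14 had 1 sign as well and TNF did not. IL1B and TLR4 were well above background on 0 arrays. IL1A, singled out after its values were seen, cleared background on 5 of the 6 acid arrays and 0 of the 6 control arrays, which are duplicates of 3 RNAs per medium. Of all 43603 probes, 3, or 0.00688%, did so on 5 or 6 acid arrays and 0 control arrays.

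**Figure D3:**
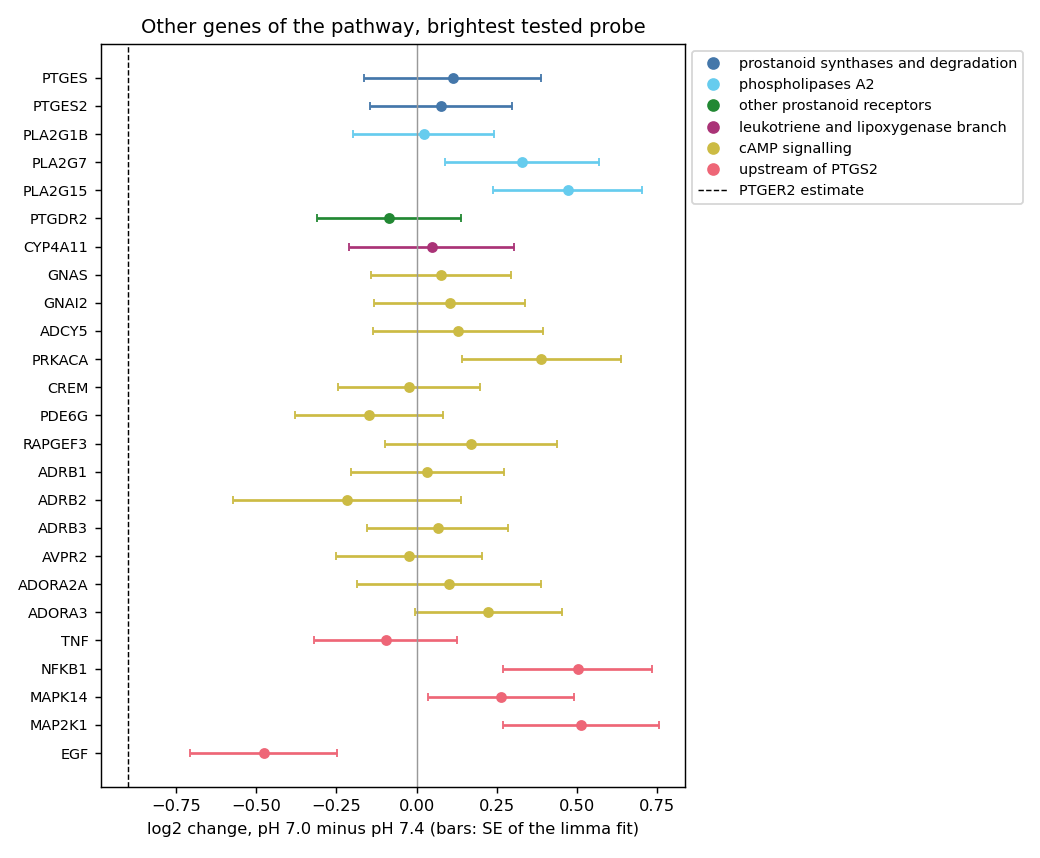
Change (log2, pH 7.0 minus pH 7.4) of the 25 other tested genes of the pathway by their brightest tested probe, with the SE of the limma fit, coloured by list. The dashed line is the estimate of PTGER2, the largest change of the 5 members, at -0.90, which lies below all 25.

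The estimate for PTGER2 kept its sign in all 27 alternative analyses in which it had a value, as did that of PTGER4. For PTGER2 it ranged from -0.94 to -0.65 under other processing. With a biological replicate or an array left out it ranged from -1.07 to -0.73. It was smallest without pH 7.0 array 5 and largest without pH 7.0 array 6. For both receptors, changes to the block, duplicates, filter, prior or outlier spots left the estimate unchanged. With all 3 pairs negative, leaving out a biological replicate could not turn its sign either. PTGER2 was called in 1 of the 27, with the 12 arrays kept apart and the RNA as a random block. There limma's adjusted p was 0.0470, in a setting that called 690 probes, or 2.54%. That setting rests on the same 6 RNAs and took the correlation of duplicate arrays as 0.164. Over the 27 alternatives the adjusted p of PTGER2 ran from 0.0470 to 1.00. PTGS2 took the opposite sign in 5 of 27 alternatives, and PTGDS and SLCO2A1 in 1 each, with normexp background correction.

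**Figure D4:**
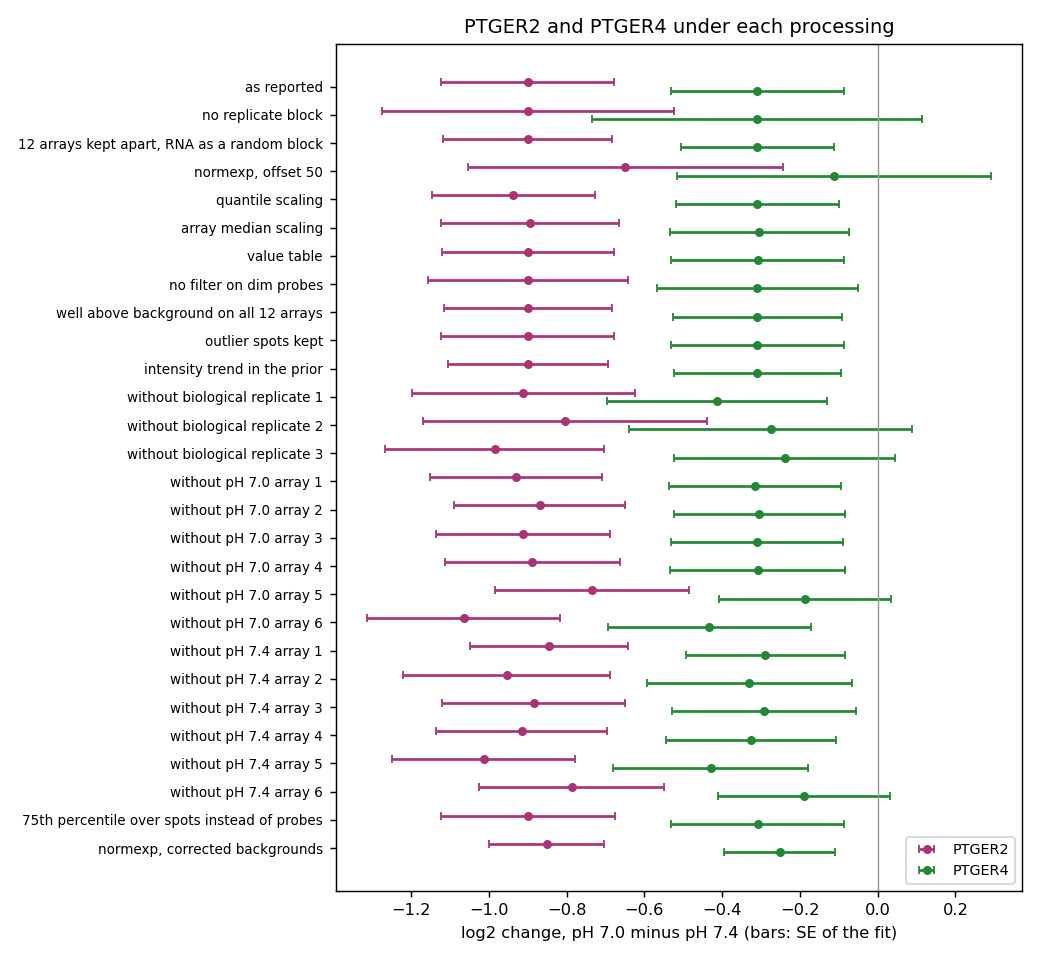
Change (log2, pH 7.0 minus pH 7.4) of PTGER2 and PTGER4 as reported and under each alternative, with the SE of the fit. Both stay below 0 in all 27 alternatives, and PTGER2 stays below PTGER4 in each. Changes to the block, duplicates, filter, prior or outlier spots leave both estimates as reported.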

How the data were processed

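Per the file headers, each scanner file holds Cy3 intensity for every spot of 1 one-colour Agilent array, with columns for the background-corrected (processed) signal, the raw median and the local background. Feature Extraction 10.7.3.1 is named in the submitters' processing notes. The deposited value table holds log2 values whose scale and centring are not stated by the authors. Compared with the scanner files, it matched log2 processed signal after subtraction of the 75th percentile and of the median of each probe (slope 1.00 on every array). Its columns had medians of -0.11, -0.15, 0.23, 0.21, -0.23 and 0.017 in the pH 7.0 group (arrays 1 to 6), and of 0.020, -0.21, 0.21, 0.079, -0.086 and 0.066 in the pH 7.4 group.

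Control spots were dropped and 128 outlier spots set to missing. Repeated spots were averaged per probe as log2 values, and the 75th percentile over probes was subtracted (signals 410 to 944). Probes well above background on at least 6 of 12 arrays were tested. The 2 arrays of an RNA were averaged, and limma 3.58.1 (R 4.3.3) fitted the difference between media, blocked on biological replicate, with eBayes and two-sided moderated tests, Benjamini-Hochberg adjusted over all tested probes, at a threshold of 0.05. Titles and file names assign arrays 1 and 2, 3 and 4, and 5 and 6 to biological replicates 1 to 3. The design pairs the RNAs, and deviations from group means correlated at 0.394, 0.637 and 0.807 within replicates. P-values refer to repeats of 1 cell line. The fit was tested on simulated data, where it recovered the size of known changes but called only the largest of them. The number of biological replicates, 3, limits the precision.

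Symbols came from RefSeq accessions in an annotation of UU_Cfam_GSD_1.0. Pathway genes were taken by their brightest tested probe, naming at most 3 per list, of lowest p, and for each member the 3 named genes of highest correlation. One listed gene is not reported here and is in none of the list counts. The members, lists and tests were chosen with earlier results of these data known. Alternatives covered the block, duplicate arrays, normexp with an offset of 50, scaling, the value table, filters, outlier spots, the prior, the threshold, and each replicate and array left out. Averaging a gene's probes changed nothing, since each of the 5 genes has 1. Figures were drawn with matplotlib 3.10.9.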

Additional observations from a re-analysis of the deposited data

How the results depend on the processing

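Of the 5 genes, PTGER2 and PTGER4 kept their sign throughout, which some alternatives could not have changed, though PTGER4 was at -0.11 with normexp. PTGS2 was at -0.11 with quantile scaling and between -0.081 and 0.19 with a replicate or array left out, below 0 without replicate 2, pH 7.0 array 6 or pH 7.4 array 2 or 5. With normexp on local backgrounds as given, PTGDS was at -0.39, SLCO2A1 at -0.20 and PTGS2 at 0.32. That setting moved the median of all tested probes to -0.19, against 0.012. With 8 and 3 spots on pH 7.4 arrays 3 and 4 given the array's median background, chosen after seeing the data, they were 0.17, 0.12 and 0.085, and PTGER4 was at -0.25. PTGER2 passed with the 12 arrays kept apart (-0.90, adjusted p = 0.0470). Without the replicate block, PTGER2 had a SE of 0.38 and an unadjusted limma p of 0.0429 (adjusted 1.00), and 0 probes were called, so the block changed no call. Leaving out replicates or arrays gave -1.07 to -0.73 for PTGER2, -0.43 to -0.19 for PTGER4, 0.20 to 0.75 for PTGDS, 0.0077 to 0.34 for SLCO2A1 and -0.75 to -0.50 for the change of PTGER2 minus that of PTGER4.

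Over all probes, limma called 0 higher and 0 lower, with 1758 and 1566 at an unadjusted p under 0.05 and a smallest adjusted p of 0.0502. The counts higher and lower were 48 and 23 at a threshold of 0.10, 396 and 294 with 12 arrays kept apart, 7 and 2 with normexp, 17 and 7 with median scaling, 90 and 44 with probes above background on all 12 arrays, 85 and 50 with an intensity trend, and 14 and 6 with the percentile over spots, also chosen afterwards. Leaving out a replicate or array gave 0 to 203 higher and 0 to 447 lower: 203 and 74 without biological replicate 1, 200 and 447 without replicate 2, while dropping pH 7.0 array 6 gave 10 and 5, dropping pH 7.4 array 1 gave 4 and 0, and dropping replicate 3 gave 0 and 0. The causes were not tested. With the all-array filter PTGDS was not tested. Signal over background limits PTGDS, and the scanner ceiling may limit PTGS2.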

Other observations

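For each gene, the scaled levels on the duplicate arrays of biological replicate 3 differed with the same sign in both media. Array 6 minus array 5 was 0.99 for PTGER2, 0.74 for PTGER4, 0.63 for PTGS2 and 0.40 for SLCO2A1 at pH 7.0, and 0.68, 0.72, 0.46 and 0.69 at pH 7.4. For the dim PTGDS it was negative in both, -1.06 and -0.41. The median size of such a difference over all tested probes was 0.39 and 0.34 for these RNAs. The subtracted 75th percentile differed as well. Its signal was 807 on array 5 and 525 on array 6 at pH 7.0, and 695 and 512 at pH 7.4. Before scaling, the PTGS2 signal was 47300.5 and 47666.4 at pH 7.0, and 52132.9 and 52721.5 at pH 7.4. How much of the differences came from the scaling was not tested.

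PTGER4 varied more between biological replicates than between media. The replicate means, over both media, spanned 1.14 on the log2 scale, against a fitted change of -0.31. For PTGER2 they spanned 0.81, against -0.90.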
